A study of Arabidopsis thaliana with 24 samples.

Results

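Photosystem I (PSI), photosystem II (PSII), the carriers between them and the ATP synthase of the thylakoid membrane turn light into NADPH and ATP. Some of their subunits are encoded in the plastid and the others, described here, in the nucleus, from which they are imported into the plastid. Light strongly promotes these nuclear genes in a greening seedling, and in darkness phytochrome-interacting factors such as PIF4 act to hold many greening genes back. The set comprises 32 Arabidopsis thaliana genes of 32328 with read counts. It was chosen by gene identifier as the nuclear, non-antenna subunits of PSI (12 genes) and PSII (11 genes), carriers (6 genes: the Rieske protein, plastocyanin, ferredoxin and ferredoxin-NADP reductase, FNR) and plastid ATP synthase (3 genes).

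RNA-seq of polyA RNA was read from whole 3-day-old seedlings of the Columbia background. All seeds had received 3 h of white light and then grew for 3 days in darkness at 22 °C. WT and the mutant labelled pif4 (genotype pif4-101) were each kept at 22 °C or moved to 37 °C for 3 h, with 3 libraries a group. All 4 groups had thus grown in darkness until the last 3 h. The labels give darkness as the condition of the 22 °C groups and heat as that of the 37 °C groups, and do not state the light during the 3 h at 37 °C. The series calls its samples biological triplicates, but nothing says whether they came from separate sowings, and the p-values below speak only to how far these libraries vary.

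Each library held 3176106 to 14791597 reads, and the lowest count of any of the 32 genes in any library was 121, with a highest of 14501. All 32 passed the filter on low counts, and none had a count of 0 in any library. Heat acted in the libraries labelled 37 °C, where 4 heat genes (HSP18.2, HSP21, HSFA2 and HSP101) summed to 56355 to 66701 CPM (read counts scaled to a common library size), against 8.89 to 15.05 at 22 °C. PIF4 (AT2G43010) itself stood at 9.98 ± 2.90 CPM in WT and 17.4 ± 6.42 CPM in pif4 at 22 °C, and at 28.8 ± 5.91 and 22.1 ± 0.532 CPM at 37 °C (SD, n = 3). Its counts therefore do not check the pif4 label, and directions below are those of the libraries labelled pif4. In bulk RNA of whole seedlings, fewer cells of a type and less RNA per cell cannot be told apart.

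The scale decides how a heat response reads here. Reads outside the 3167 genes raised more than 2-fold by heat in WT accounted for 82.9 to 83.9% of a library at 22 °C and for 40.0 to 43.5% at 37 °C. TMM, the scaling used below, sets the libraries so that most genes balance, and the median gene then changed by -0.12 (log2, 37 °C against 22 °C) in WT and -0.10 in pif4. With the total count as library size the same medians were -1.13 and -1.13. Levels are given as CPM on the TMM scale, and "rose" and "fell" mean a Benjamini-Hochberg adjusted p under 0.05 over 18774 genes in edgeR's quasi-likelihood test on that scale.

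On the TMM scale 23 of the 32 genes rose with heat in WT and none fell, against 25.5% of all genes tested that rose and 26.0% that fell. With total counts as library size 1 rose (PSBO2) and 14 fell, against 9.51% and 62.0% of all genes. The median change of the 32 was 0.72 log2 on the TMM scale and -0.29 on total counts. Relative to the median gene it was 0.84 on both scales. None of the 32 fell in WT at an unadjusted p under 0.05 either, and DESeq2 also called 23 higher and 0 lower. Of all 20641 genes that DESeq2 tested there, 4713 were higher and 5427 lower. In pif4 20 rose and 1 (PSAN) fell on the TMM scale, against 25.6% and 24.1% of all genes. On total counts 1 rose and 18 fell there, against 9.35% and 62.0%. The median in pif4 was 0.53 log2, or 0.62 above the median gene, and 0.64 above it on total counts.
Of 4 genes known to be raised by light, 2 (ELIP1 and HY5) rose with heat in each genotype, 1 (CHS) did not pass the test and 1 (FLS1) fell. Their sum, most of it ELIP1 at 37 °C, was 22.1 to 26.6 CPM in WT at 22 °C and 137 to 182 CPM at 37 °C, and 23.1 to 56.0 CPM and 166 to 189.9 CPM in pif4. In WT ELIP1 rose by 4.28 ± 0.37 log2 (edgeR adjusted p = 1.6e-07) and HY5 by 1.87 ± 0.27 (adjusted p = 9.2e-06), and CHS stood at -0.11 ± 0.38. ELIP1 itself went from 6.62 ± 1.03 to 125 ± 24.8 CPM in WT and from 11.3 ± 8.53 to 136 ± 10.4 CPM in pif4 (SD, n = 3). FLS1 had 2 to 40 reads a library at 22 °C and 0 in all 6 libraries at 37 °C, called lower in WT (edgeR adjusted p = 0.018) and pif4 (adjusted p = 0.0012). On total counts 2 of the 4 rose and 2 fell in WT, against 9.51% and 62.0% of all genes. In pif4 1 rose and 2 fell, against 9.35% and 62.0%. Their part in the changes of the 32 genes was not tested.

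**Figure D1:**
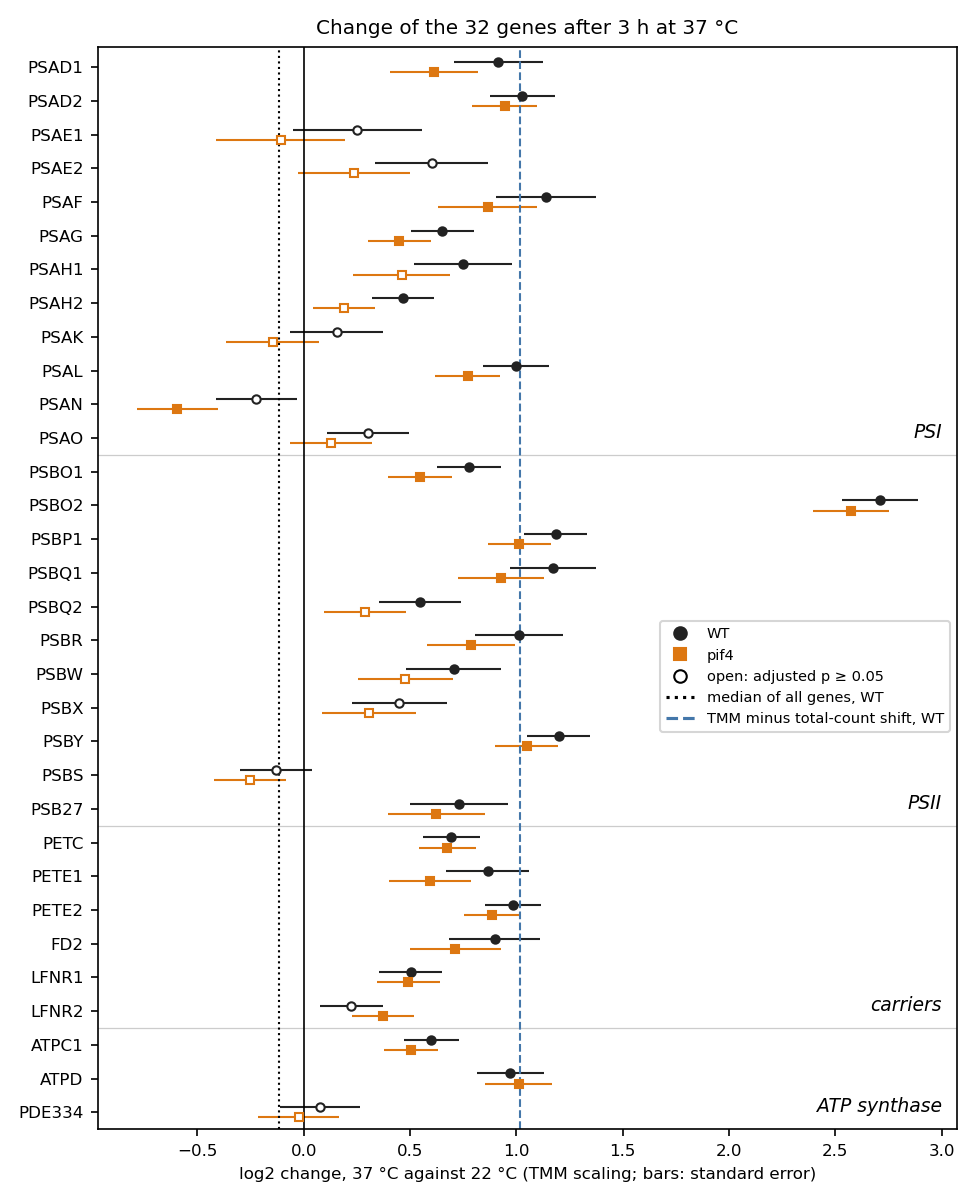
Log2 change of each of the 32 genes at 37 °C against 22 °C (TMM scale) in WT (circles) and pif4 (squares), with standard errors from edgeR and 3 libraries a group. Filled points have an adjusted p under 0.05, the dotted line is the median of all genes in WT (-0.12), and the dashed line marks where no change on total counts lies in WT (the shift between both scales' medians). PSBO2 stands alone at 2.71 in WT and 2.57 in pif4, and in pif4 the next highest value is 1.05.

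Taken as 1 pool, the 32 genes held 0.963 to 1.16% of all reads in WT at 22 °C and 0.864 to 0.995% at 37 °C. In pif4 they held 0.998 to 1.37% and 0.790 to 0.925%. The share of all reads overlapped between the temperatures in WT and did not overlap in pif4, where it was lower at 37 °C. On the TMM scale the summed level was 6682 to 8630 CPM in WT at 22 °C and 12369 to 14219 CPM at 37 °C. In pif4 the sums were 6710 to 10558 CPM and 11370 to 13176 CPM, so that the temperatures did not overlap and 37 °C was the higher in both. Counted per 100 reads outside the 3167 heat-raised genes, the pool stood at 1.15 to 1.39 and 2.12 to 2.29 in WT, and at 1.19 to 1.66 and 1.97 to 2.19 in pif4. Those 3167 genes were picked for rising with heat in these same WT libraries, and leaving them out shrinks the denominator at 37 °C. A gene with an unchanged share of all reads would thus also stand higher at 37 °C on this scale. Of the 32 genes, 7 are themselves among those 3167, so this denominator is not independent of the set either.

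**Figure D2:**
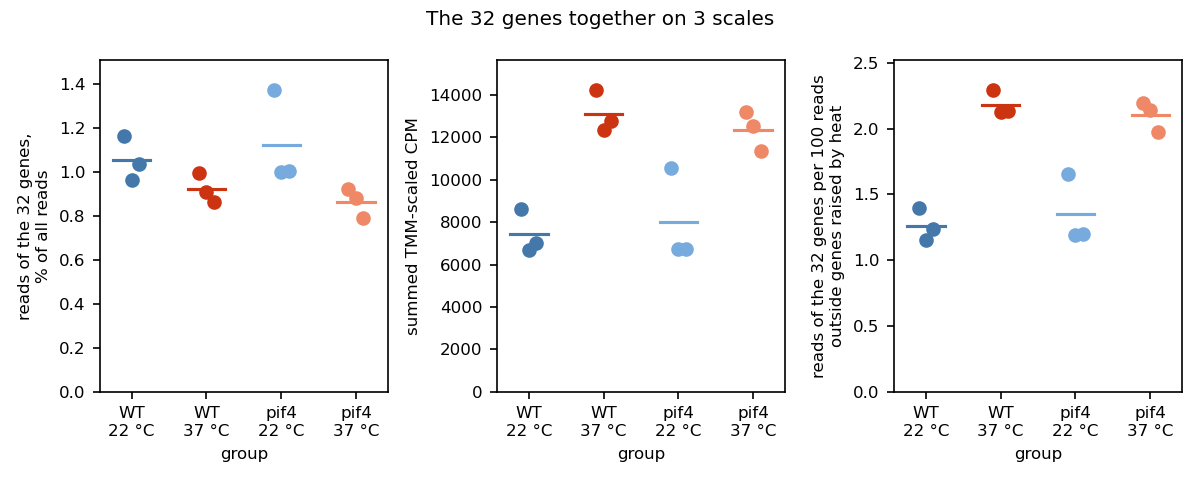
Sum of the 32 genes in each of the 12 libraries (points; bars are group means of 3) as percent of all reads, as TMM-scaled CPM, and per 100 reads outside the 3167 genes raised over 2-fold by heat in WT; every axis starts at 0. The pool lies lower at 37 °C on the first scale, with overlapping values in WT, and higher on the other 2 without overlap. The 3167 genes were picked for rising in these WT libraries, which by itself raises the third scale at 37 °C.

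Summed by complex, the shares within the pool shifted, a comparison that no library scaling touches. PSII took 44.2 to 46.1% of the pool's reads in WT at 22 °C and 48.4 to 49.3% at 37 °C. PSI took 31.8 to 32.4% and 29.3 to 30.4%, and ATP synthase 8.89 to 9.56% and 6.85 to 7.68%. The carriers overlapped, at 12.7 to 14.8% and 13.4 to 14.7%. The same order held in pif4, where PSII held 44.0 to 45.8% and 47.8 to 49.4%, PSI 31.2 to 34.4% and 28.7 to 29.5%, and ATP synthase 8.11 to 9.38% and 7.51 to 8.05%. There too only the carriers overlapped between the temperatures, at 11.7 to 14.6% and 14.0 to 14.7%. The genes of a complex did not all shift the same way. In WT the mean share of PDE334 went from 3.89 to 2.33% and ATPC1 from 3.08 to 2.62%, while ATPD went from 2.16 to 2.40%. In PSII the WT mean of PSBO2 went from 0.913 to 3.36%, and PSBP1, PSBQ1, PSBR and PSBY were also higher at 37 °C. PSBS (3.54 to 1.83%), PSBO1, PSBQ2, PSBW, PSBX and PSB27 were lower. These shares were not tested.

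Levels per coding kilobase (CPM on the TMM scale) ranked PSBR first in all 4 groups, at 1738 ± 396 in WT at 22 °C and 3507 ± 593 at 37 °C (SD, n = 3). PSBR is a small PSII protein linked to binding of the oxygen-evolving proteins. The plastocyanin gene PETE2 followed in WT at 943 ± 86.2 and 1865 ± 54.1, while the other plastocyanin gene, PETE1, was last at 22 °C at 47.4 ± 5.46. At 22 °C in WT PETE2, PSBX (932 ± 267) and PSAG (842 ± 63.0) did not differ beyond their spread. With transcript in place of coding length PSBR stayed first and PETE2 moved from place 2 to place 6. PSBO2 was in place 30 in WT at 22 °C and in place 19 at 37 °C. Among all 18774 genes, ordered by CPM without length, the median place of the 32 was 554.5 in WT at 22 °C and 576 at 37 °C.

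PSII gave the largest single change. PSBO1 (AT5G66570) and PSBO2 (AT3G50820) encode the copies of the extrinsic protein that stabilises the manganese cluster where water is split, and PSBO1 is the major form in leaves. PSBO2 stood at 63.1, 75.1 and 62.0 CPM in WT at 22 °C (libraries a, b and c) and at 358, 445 and 507 CPM at 37 °C. In pif4 it stood at 94.3, 61.4 and 61.1 CPM and at 407, 434 and 438 CPM. In both genotypes all 37 °C libraries lay far above all 22 °C libraries. The rise was 2.71 ± 0.18 log2 in WT (SE, n = 3 against 3, edgeR adjusted p = 9.7e-11) and 2.57 ± 0.18 in pif4 (adjusted p = 2.2e-10), or 6.54-fold and 5.95-fold. PSBO2 was the only gene of the 32 that also rose in both genotypes with total counts as library size, by 1.69 in WT and 1.56 in pif4.

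PSBO1 stood at 624, 542 and 582 CPM in WT at 22 °C and at 1007, 919 and 1069.6 CPM at 37 °C. In pif4 it stood at 821, 536 and 564 CPM and at 979, 897 and 928 CPM. Neither genotype overlapped between temperatures on the TMM scale. Its rise was 0.78 ± 0.15 log2 in WT (edgeR adjusted p = 0.00026) and 0.55 ± 0.15 in pif4 (adjusted p = 0.0054), and on total counts it turned to -0.24 and -0.46.

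The read ratio of PSBO1 to PSBO2 within a library does not depend on scaling. It was 7.21 to 9.86 in the 3 WT libraries at 22 °C and 2.06 to 2.81 at 37 °C. In pif4 it was 8.70 to 9.23 and 2.07 to 2.40. Every library at 37 °C thus held a smaller excess of PSBO1 than any library at 22 °C. The ratio changed by -1.97 log2 over both genotypes (-1.92 in WT, -2.02 in pif4), a 3.92-fold lower ratio (two-sided exact permutation within genotype, p = 0.005, the smallest the 400 permutations can give, adjusted p = 0.0117 over 7 pairs).

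The 250 bases before each annotated gene start were searched for 4 motifs in the RefSeq assembly TAIR10.1, while the submitters' processing notes name TAIR10, and the count table itself holds no coordinates. Heat shock element cores (GAANNTTC or TTCNNGAA) were in the windows of 6 of the 32 genes (18.8%), and in 16.1% of 27443 gene windows of the same length. The G-box (CACGTG), which PIF factors can bind, was in 5 (15.6%, against 6.49%: PSAE2, PSAH2, PSBQ1, PSBQ2 and ATPD). The PBE-box (CACATG), also bound by PIF factors, was in 3 (9.38%, against 11.1%: PSAD2, PSB27 and LFNR2). The I-box (GATAAG), found in promoters of light-regulated genes, was in 9 (28.1%, against 12.3%). Both strands were searched. A match is a description of these letters and was not linked to a change by any test.

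The other oxygen-evolving proteins followed. PSBP1 (AT1G06680), which with PSBQ helps retain calcium and chloride at the site, stood at 628, 548 and 547 CPM in WT at 22 °C and at 1367, 1289 and 1257 CPM at 37 °C. In pif4 it stood at 724, 501 and 499.6 CPM and at 1220.1, 1196 and 1060.1 CPM. Its rise was 1.18 ± 0.15 log2 in WT (edgeR adjusted p = 1.5e-06) and 1.01 ± 0.15 in pif4 (adjusted p = 1.1e-05), with no overlap between temperatures in either. On total counts it was 0.17 and 0.00, with neither called. PSBQ1 (AT4G21280) went from 281, 195 and 209 CPM to 575, 477 and 489 CPM in WT, a rise of 1.17 ± 0.20 (adjusted p = 7.6e-05). PSBQ2 (AT4G05180) went from 155, 109 and 115 CPM to 202, 179.6 and 171 CPM, a rise of 0.55 ± 0.19 (adjusted p = 0.023). In pif4 PSBQ1 rose by 0.93 ± 0.20 and PSBQ2, at 0.29 ± 0.19, did not pass the test. The read ratio of PSBQ1 to PSBQ2 was 1.71 to 1.97 in all 6 libraries at 22 °C and 2.34 to 3.52 in all 6 at 37 °C. It changed by 0.62 log2 (two-sided exact permutation p = 0.005, the smallest possible, adjusted p = 0.0117 over 7 pairs).

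Of the 11 PSII genes, 9 rose in WT and 7 in pif4 on the TMM scale (81.8% and 63.6%, against 25.5% and 25.6% of all genes). On total counts 1 rose and 3 fell in WT (9.09% and 27.3%, against 9.51% and 62.0% of all genes). In pif4 1 rose and 5 fell on that scale (9.09% and 45.5%, against 9.35% and 62.0%). The small membrane subunit PSBY went from 126 ± 10.8 to 288 ± 26.6 CPM in WT (SD, n = 3, edgeR adjusted p = 1.2e-06) and rose by 1.05 ± 0.15 log2 in pif4, and PSBR by 1.01 ± 0.21 and 0.79 ± 0.21. PSB27, a lumenal protein of PSII assembly and repair, rose by 0.73 ± 0.23 and 0.62 ± 0.23. PSBW, another small membrane subunit, rose in WT by 0.70 ± 0.22 and stood at 0.48 ± 0.22 in pif4, not called. PSBX, a further one, passed in neither genotype, at 0.45 ± 0.22 and 0.31 ± 0.22. It passed in WT without library a of WT at 22 °C (0.70, adjusted p = 0.014), in pif4 without library a of pif4 at 22 °C (0.65, adjusted p = 0.0071), and in both without the 4 libraries lettered a (0.54 and 0.53, adjusted p = 0.0016 and 0.002). PSBS, the pH sensor that switches on heat dissipation of excess light, passed in neither and stood at -0.13 ± 0.17 and -0.25 ± 0.17. Its CPM were 310.4, 243 and 237 in WT at 22 °C and 275, 231 and 217 at 37 °C, which overlap.
The calls of several smaller rises were lost when 1 library was left out, which leaves a group of 2, while their changes stayed above 0. In WT those of PSB27, PSBQ2 and PSBW were each lost without library b or c at 22 °C or library a at 37 °C. The changes were then 0.49 to 0.64 log2 for PSB27, 0.45 to 0.49 for PSBQ2 and 0.53 to 0.61 for PSBW, with adjusted p of 0.061, 0.0613 and 0.0818 for PSB27, 0.105, 0.0866 and 0.0693 for PSBQ2, and 0.07, 0.0624 and 0.0731 for PSBW. In pif4 PSB27 lost its call without library b or c at 22 °C or a or b at 37 °C (0.53, 0.44, 0.53 and 0.65 log2, adjusted p = 0.105, 0.154, 0.104 and 0.0552).

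Of the 12 PSI genes, 7 rose in WT on the TMM scale (58.3%, against 25.5% of all genes). In pif4 5 rose and 1 fell (41.7% and 8.33%, against 25.6% and 24.1%). On total counts none rose, and 6 fell in WT and 8 in pif4 (50% and 66.7%, against 62.0% of all genes in each). The stromal side, where ferredoxin docks, is built by PSAD and PSAE. PSAD1 rose by 0.92 ± 0.21 log2 in WT and 0.61 ± 0.21 in pif4, and PSAD2 by 1.03 ± 0.15 and 0.95 ± 0.15. The PSAE genes passed in neither genotype, with PSAE1 at 0.25 ± 0.30 and -0.11 ± 0.30 and PSAE2 at 0.60 ± 0.27 and 0.24 ± 0.26. PSAE2 was called in WT when only the groups compared were fitted (0.60, edgeR adjusted p = 0.0346), without library a of WT at 22 °C (0.83, adjusted p = 0.0198), without b of WT at 37 °C (0.74, adjusted p = 0.0488) and without the 4 libraries lettered a (0.54, adjusted p = 0.0065). In pif4 it was called without library a at 22 °C (0.62, adjusted p = 0.0309) and without the 4 lettered a (0.41, adjusted p = 0.0281). The ratio of PSAE1 to PSAE2 nevertheless moved from 2.29 to 2.71 in the 6 libraries at 22 °C to 1.70 to 2.25 in the 6 at 37 °C. That change was -0.33 log2 (two-sided exact permutation p = 0.005, the smallest possible, adjusted p = 0.0117 over 7 pairs).

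The lumenal side of PSI, where plastocyanin docks, was split. PSAF (AT1G31330), the docking subunit, stood at 388, 282 and 262 CPM in WT at 22 °C and at 803, 623 and 623 CPM at 37 °C. In pif4 it stood at 505, 252 and 245 CPM and at 653, 645 and 521 CPM. The temperatures did not overlap, and the rise was 1.14 ± 0.24 in WT (edgeR adjusted p = 0.00066) and 0.87 ± 0.23 in pif4 (adjusted p = 0.0055), with 0.13 and -0.13 on total counts. PSAN (AT5G64040), a lumenal subunit that also interacts with plastocyanin, went the other way. It stood at 161, 125 and 141 CPM in WT at 22 °C and at 134, 117 and 115 CPM at 37 °C, and at 212, 133 and 131 CPM and at 125, 108 and 80.9 CPM in pif4. The WT ranges overlap and the pif4 ranges do not. PSAN fell by 0.59 on the log2 scale in pif4 (SE 0.19, edgeR adjusted p = 0.014) and was not called in WT, at -0.22 ± 0.19. The pif4 call was lost without library a at 22 °C (-0.35, adjusted p = 0.107) or library c at 37 °C (-0.44, adjusted p = 0.0819). On total counts PSAN fell in WT as well, by 1.24.

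The membrane subunits around the rim of PSI made up the rest. PSAL, which with PSAH and PSAO forms the side where mobile antenna binds, rose by 1.00 ± 0.15 in WT and 0.77 ± 0.15 in pif4. PSAH1 rose by 0.75 ± 0.23 and PSAH2 by 0.47 ± 0.15 in WT, and in pif4 they stood at 0.46 ± 0.23 and 0.19 ± 0.14, not called. PSAO passed in neither, at 0.30 ± 0.19 and 0.13 ± 0.19, but was called in pif4 without library a at 22 °C (0.43, adjusted p = 0.0428) and in WT without the 4 libraries lettered a (0.35, adjusted p = 0.0337). PSAG, next to the peripheral antenna, rose by 0.65 ± 0.15 and 0.45 ± 0.15, and its counterpart PSAK passed in neither, at 0.16 ± 0.22 and -0.14 ± 0.22. The WT call of PSAH1 was lost without library c at 22 °C (adjusted p = 0.0513) and that of PSAH2 without library b at 22 °C (adjusted p = 0.0707). In pif4 PSAG lost its call without library b or c at 22 °C or b at 37 °C (adjusted p = 0.0725, 0.099 and 0.0682). PSAD1 in pif4 lost it without any 1 of library b or c at 22 °C or a or b at 37 °C (adjusted p = 0.104, 0.0964, 0.0709 and 0.0616).

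The carriers moved most evenly. Of 6 genes, 5 rose in WT and all 6 in pif4 on the TMM scale (83.3% and 100%, against 25.5% and 25.6% of all genes). On total counts none rose and 3 fell in each genotype (50%, against 62.0% of all genes). PETC, the Rieske iron-sulfur protein of the cytochrome b6f complex, rose by 0.69 ± 0.13 log2 in WT and 0.68 ± 0.13 in pif4. PETE2 (AT1G20340), the main plastocyanin, stood at 519, 432 and 474 CPM in WT at 22 °C and at 971, 921 and 927 CPM at 37 °C. In pif4 it stood at 570.4, 454 and 451 CPM and at 946, 931 and 849 CPM. No library overlapped between temperatures, and the rise was 0.98 ± 0.13 in WT (edgeR adjusted p = 3.9e-06) and 0.89 ± 0.13 in pif4 (adjusted p = 1.5e-05). On total counts these values were -0.03 and -0.13, neither called. PETE1 rose by 0.87 ± 0.19 and 0.60 ± 0.19, and FD2, the main leaf ferredoxin, by 0.90 ± 0.22 and 0.71 ± 0.21.

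FNR passes the electrons of ferredoxin to NADPH. LFNR1 (AT5G66190) rose by 0.50 ± 0.15 in WT and 0.49 ± 0.15 in pif4. LFNR2 (AT1G20020) stood at 59.9, 62.4 and 68.6 CPM in WT at 22 °C and at 72.3, 82.7 and 68.1 CPM at 37 °C, which overlap, and at 72.5, 60.6 and 63.1 CPM and at 93.0, 85.7 and 75.0 CPM in pif4, which do not. It was not called in WT, at 0.22 ± 0.15, and rose in pif4 by 0.37 ± 0.15 (edgeR adjusted p = 0.041). That call was lost without any 1 of library b or c at 22 °C or a or b at 37 °C (adjusted p = 0.138, 0.117, 0.15 and 0.0979) and under DESeq2 (adjusted p = 0.11). LFNR1 in WT lost its call without library a at 22 °C (adjusted p = 0.0525). In pif4 FD2 lost its call without library b (adjusted p = 0.0573) or c (adjusted p = 0.0603) at 22 °C, and PETE1 without library b or c at 22 °C or b at 37 °C (adjusted p = 0.0721, 0.0764 and 0.0836).

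Of the 3 ATP synthase genes, 2 rose in both genotypes on the TMM scale (66.7%, against 25.5% of all genes in WT and 25.6% in pif4). On total counts none rose and 2 fell in each genotype (66.7%, against 62.0% of all genes). ATPD (AT4G09650), the delta subunit that ties the catalytic head to the stator, stood at 186, 146 and 150.4 CPM in WT at 22 °C and at 355, 307 and 283 CPM at 37 °C. In pif4 it stood at 207, 158 and 150.3 CPM and at 379, 362 and 295 CPM. The temperatures did not overlap, and the rise was 0.97 ± 0.16 in WT (edgeR adjusted p = 3.8e-05) and 1.01 ± 0.16 in pif4 (adjusted p = 2.4e-05). ATPC1, the gamma subunit that rotates within the head, rose by 0.60 ± 0.13 and 0.50 ± 0.13. PDE334 (AT4G32260), a stator subunit of the membrane part, passed in neither, at 0.08 ± 0.19 and -0.02 ± 0.19.

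**Figure D3:**
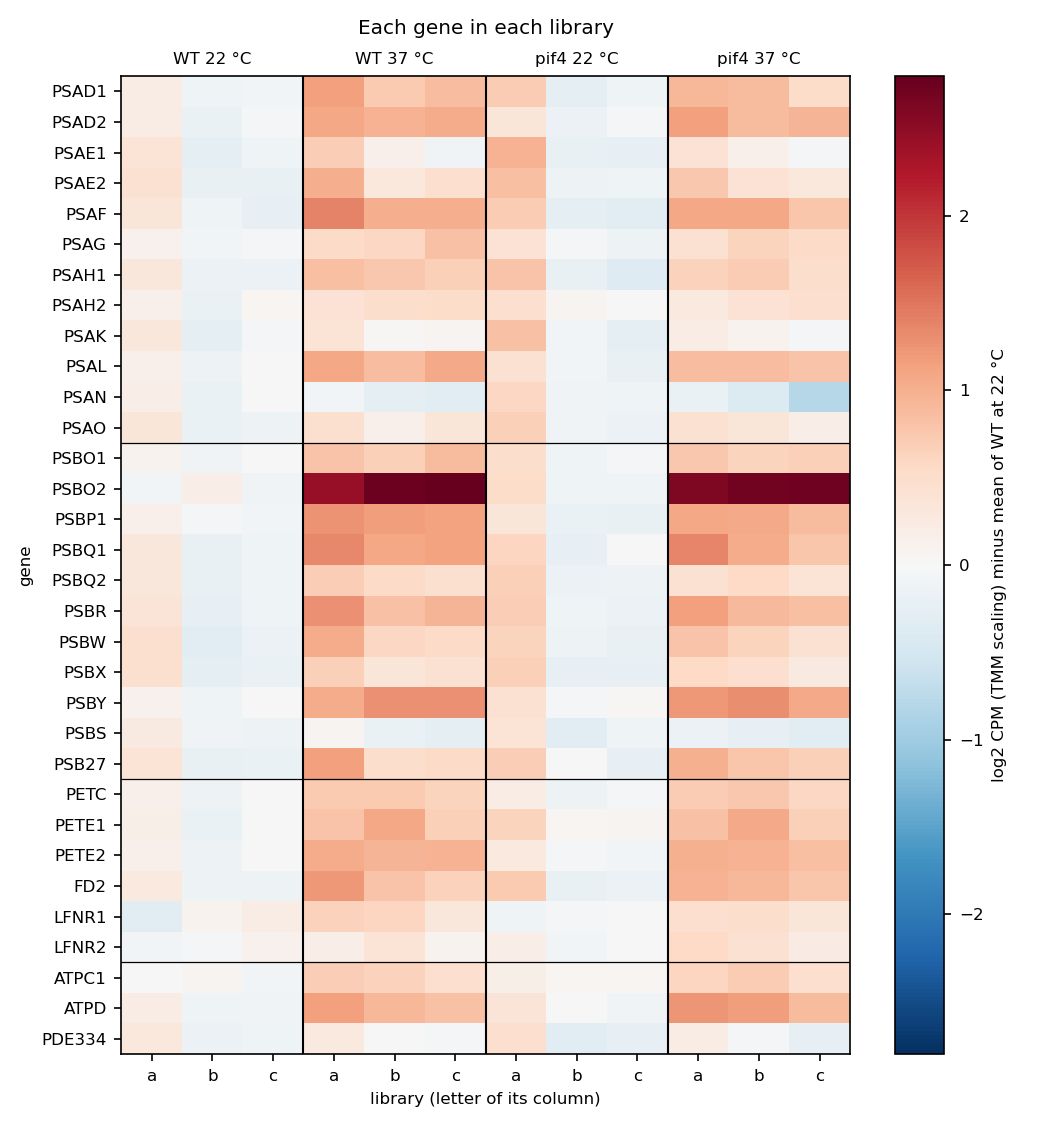
Log2 CPM (TMM scale) of each of the 32 genes (rows, by complex: PSI, PSII, carriers, ATP synthase) in each of the 12 libraries (columns, 3 a group), minus the mean of WT at 22 °C. PSBO2 is the darkest row at 37 °C, and library a of pif4 at 22 °C is the highest of its group for 31 of 32 genes.

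Across the 7 pairs of paralogs, 3 ratios changed after adjustment (PSBO1 to PSBO2, PSBQ1 to PSBQ2 and PSAE1 to PSAE2). The other 4 pairs gave adjusted p of 0.0613 to 0.075 by the same exact permutation test. Their changes were 0.21 log2 for LFNR1 to LFNR2, -0.22 for PETE1 to PETE2, 0.31 for PSAH1 to PSAH2 and -0.20 for PSAD1 to PSAD2. Each of these 4 passed when a certain library was left out: LFNR without library c of pif4 at 22 °C (0.24, adjusted p = 0.0438) or a of pif4 at 37 °C (0.24, adjusted p = 0.0263), PETE without b of WT at 37 °C (-0.28, adjusted p = 0.00875), PSAH without a of pif4 at 22 °C (0.42, adjusted p = 0.0263) and PSAD without a of WT at 37 °C (-0.25, adjusted p = 0.0438). The coding sequences of a pair were 75 to 88% identical in TAIR10.1, 83.8% for the PSBO pair, with identical runs of 17 to 35 bases at most. No source used here names the counting method or the read length. The split of reads between copies is thus unknown, and values of single copies are uncertain to that extent.

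**Figure D4:**
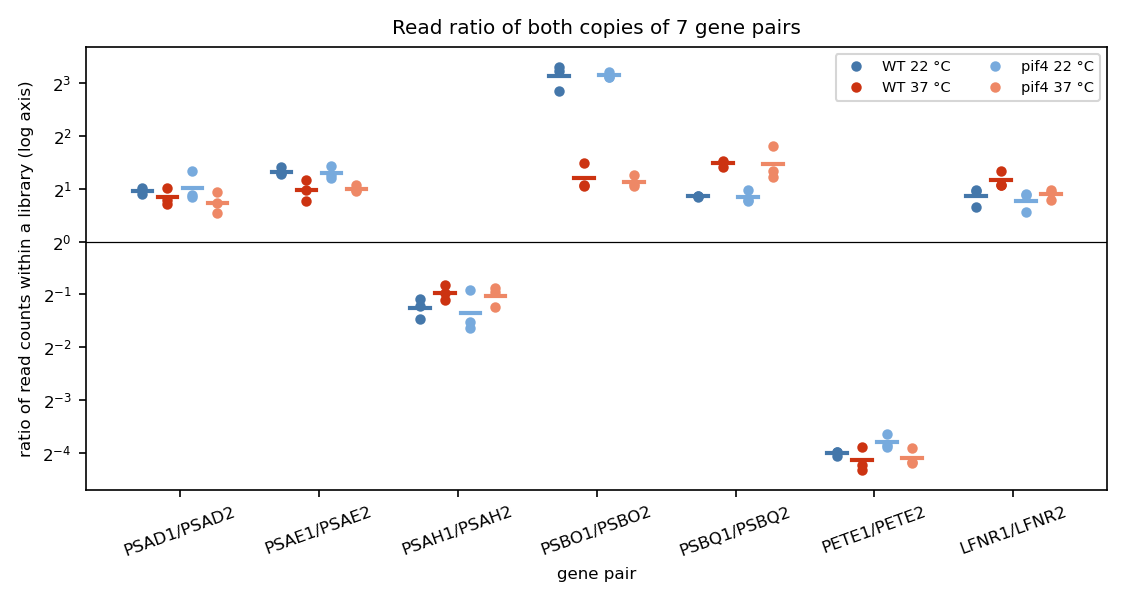
Read count of the first gene of each pair over the second within each library (log axis; points are the 3 libraries of a group, bars their geometric mean, 4 groups a pair). The PSBO pair falls from 7.21 to 9.86 at 22 °C to 2.06 to 2.81 at 37 °C in the 12 libraries, and the PSBQ and PSAE pairs also separate by temperature.

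The comparison of genotypes asks whether these genes, or their response to heat, differ between WT and the mutant labelled pif4. None of the 32 was called between the libraries labelled pif4 and WT at either temperature by edgeR or DESeq2, and none had an unadjusted p under 0.05. Among all genes, edgeR called 0.0692% higher and 0.0160% lower in pif4 at 22 °C, and 0.0373% and 0.0160% at 37 °C. DESeq2 called more, 81 higher and 5 lower of 18785 genes at 22 °C, and 96 and 40 of 17856 at 37 °C. The differences of the 32 genes ran from -0.07 to 0.27 log2 at 22 °C and from -0.22 to 0.18 at 37 °C. Over all 32 the normal 95% intervals stayed within -0.37 to 0.85 and -0.70 to 0.53, so differences beyond those bounds lie outside every interval. These are bounds on the fit and do not show that the genotypes are alike.

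The heat effect in pif4 minus that in WT was also called for none of the 32 by edgeR or DESeq2, with a lowest unadjusted p of 0.18. Among all 18774 genes 0% were called higher and 0% lower by edgeR, and 1025 had an unadjusted p under 0.05. DESeq2, which tested 24353 genes, called 0 higher and 2 lower. The differences ran from -0.37 (PSAN) to 0.15 (LFNR2) with standard errors of 0.18 to 0.43. For PSBO2 the difference was -0.14 ± 0.24 with a 95% interval of -0.61 to 0.33. In both genotypes 19 genes rose, 4 rose in WT alone (PSAH1, PSAH2, PSBQ2 and PSBW) and 1 in pif4 alone (LFNR2). None of these differences between genotypes passed its own test. Of all genes, 25.5% rose in WT and 25.6% in pif4, and the share that rose in both is not given here. Without library a of pif4 at 22 °C, PSAH1 (0.89, edgeR adjusted p = 0.00033), PSBQ2 (0.60, adjusted p = 0.0051) and PSBW (0.78, adjusted p = 0.0037) were called in pif4 too, and PSAH2 was not (0.33, adjusted p = 0.0611). Without the 4 libraries lettered a, all 4 were called in pif4, PSAH2 at 0.33 (adjusted p = 0.0397). Across the 32 genes the changes in WT and pif4, which share no library, had a Pearson correlation of 0.976, and 0.954 without PSBO2. The 32 points share the libraries of each genotype, and no p is given.

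Library a of pif4 at 22 °C bears on these comparisons. It is the shallowest library, at 3176106 reads, and was the highest of its group for 31 of the 32 genes, by a median of 0.44 log2 above the group mean. Library a was the shallowest and most often the highest in the other groups too, for 28, 24 and 21 of the 32 genes (WT at 22 °C, WT at 37 °C, pif4 at 37 °C). The 32 genes were higher in pif4 than in WT for 31 of 32 at 22 °C and lower for 29 of 32 at 37 °C, and the signed heat effect was the lower in pif4 for 30 of 32, among them PSAN and PSBS, whose negative values lay farther from 0 in pif4. Without library a of pif4 at 22 °C the median difference at 22 °C went from 0.12 to -0.13, and the median difference of the heat effects from -0.19 to 0.08. The heat response in pif4 then had 26 genes higher and 0 lower, with a median of 0.77. Of all 19260 genes tested in that fit, 4561 were higher and 4228 lower. Without all 4 libraries lettered a, 25 rose in WT and 25 rose and 1 fell in pif4, with medians of 0.71 and 0.68. Of all 19295 genes tested then, 4250 were higher and 4228 lower in WT, and 4198 and 3948 in pif4. The part of depth in these values was not tested.

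Related genes were read from lists of the antenna and the other photosynthetic machinery. The 18 antenna genes encode the chlorophyll-binding proteins that feed the photosystems. With heat in WT 13 rose and 1 fell on the TMM scale (72.2% and 5.56%, against 25.5% and 26.0% of all genes), with a median of 1.17. In pif4 12 rose and 1 fell (66.7% and 5.56%, against 25.6% and 24.1%). On total counts 5 rose and 4 fell in WT (27.8% and 22.2%, against 9.51% and 62.0%). LHCB1.5 (3.37 ± 0.23, adjusted p = 2.3e-10) and LHCA1 (2.57 ± 0.20, adjusted p = 1.2e-09) had the largest rises, and the only fall was LHCB2.3 (-4.30 ± 0.51, edgeR adjusted p = 6.4e-06). LHCB genes are close copies, so their split is uncertain too. Of 21 other electron transport genes tested (22 listed), 8 rose and 1 fell in WT, with a median of 0.24, and 7 rose and 2 fell in pif4. These are 36.4% and 4.55% of those listed in WT, against 25.5% and 26.0% of all genes. In pif4 they are 31.8% and 9.09%, against 25.6% and 24.1%. On total counts 2 rose and 16 fell in WT (9.09% and 72.7%, against 9.51% and 62.0%). FD1, a second leaf ferredoxin, rose by 3.17 ± 0.24 (adjusted p = 2.9e-09) against 0.90 for FD2, and the root-type FNR gene RFNR1 rose by 1.68 ± 0.15 (adjusted p = 1.4e-08). NDHM, of the NDH complex of cyclic electron flow, fell (-0.87 ± 0.27, adjusted p = 0.011).

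Of 9 assembly factors, 3 rose (33.3%) and 2 fell (22.2%) in each genotype, shares near those of all genes (25.5% and 26.0% in WT, 25.6% and 24.1% in pif4), with a median of 0.22 in WT. The PSII factors HCF136 (1.11 ± 0.15) and LPA1 (0.92 ± 0.19) rose, while the PSI factor Y3IP1 (-1.83 ± 0.21) and HCF173 (-1.14 ± 0.37), which acts in translation of a PSII core subunit, fell. Of 10 carbon fixation genes, 4 rose and 2 fell in WT (40% and 20%), with a median of 0.15. In pif4 3 rose and 2 fell (30% and 20%), beside the same shares of all genes. The Rubisco activase gene RCA (1.37 ± 0.13) and GAPA1 (0.69 ± 0.13), of the Calvin cycle, rose. The Rubisco small subunit genes RBCS1B (-1.07 ± 0.24) and RBCS2B (-0.56 ± 0.13) fell (all edgeR adjusted p at most 0.014). RBCS1A and RBCS3B, of the same family, stood higher at 37 °C in WT on the TMM scale. RBCS1A went from 3036 ± 316 to 4288 ± 277 CPM and RBCS3B from 939 ± 65.7 to 1441 ± 51.7 CPM (SD, n = 3). On total counts the medians in WT were 0.16 for the antenna, -0.77 for other electron transport, -0.80 for assembly factors and -0.87 for carbon fixation, against -1.13 for all genes. Whether the 32 genes differ from any of these lists was not tested.

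Markers of seedling parts were read beside these genes. Root markers CASP1 (-1.27 ± 0.18 log2, edgeR adjusted p = 9.2e-06) and CASP2 (-3.17 ± 0.22, adjusted p = 2.4e-10) fell with heat in WT and also in pif4, and the other 2 of 4 were not called. The sum over the 4 went from 194 to 220.2 CPM to 57.9 to 82.5 CPM in WT and from 174 to 246 to 79.2 to 104 CPM in pif4. Of 4 shoot epidermis markers KCS6 alone was called, from 372 ± 27.8 to 691 ± 72.0 CPM in WT and from 302 ± 54.1 to 660.3 ± 75.2 CPM in pif4 (SD, n = 3). LTP1 (0.03 ± 0.14 log2), FDH (-0.03 ± 0.14) and ATML1 (0.10 ± 0.18) were not called in WT. On total counts all 4 root markers and 3 of the 4 epidermis markers (75%) fell in each genotype, and none rose. On that scale 62.0% of all genes fell in each genotype. Seed markers, 3 of 4 with enough reads, were not called with heat, and their sums overlapped between temperatures, at 44.5 to 257 and 130.3 to 443 CPM in WT and at 443 to 653 and 639 to 1191 CPM in pif4. Between genotypes these sums did not overlap at either temperature. The 3 markers stood 1.90 to 2.28 log2 higher in pif4 at 22 °C and 1.55 to 1.92 higher at 37 °C, with none called. The part of these values in the changes of the 32 genes was not tested.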

How the data were processed

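The authors deposited a table of raw read counts per gene with length-corrected values beside them, per the file headers; the counts are whole numbers whose totals differ between libraries. The genome build was TAIR10, per the submitters' processing notes. No source used here names the aligner, the counting tool or the use of strand. Columns were tied to groups by the genotype and the first letter, D or H, in their names. The growth conditions label writes D for darkness and H for heat. The names hold no temperature, so the temperature of a column rests on that reading. Libraries are named by the letters a, b and c of those columns, which no label ties to a replicate number. Of the per-sample columns, 36 were not used: 12 length-corrected ones of the libraries used, and 24 of line codes that no label ties to a PIF4-L line. So 12 of 24 labelled libraries were not analysed here, and 5 of 9 planned comparisons were run.

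Counts of 12 libraries entered 1 fit of edgeR 4.0.16 under R 4.3.3, with 1 mean a group and no covariate. The fit removed low counts by filterByExpr and used TMM factors and a robust quasi-likelihood F test. It was tested on simulated data in which few genes changed, in both directions. Those data did not hold the heat-raised share of reads seen here, so they do not bear on the choice of scale. Of 33602 genes listed, 1274 had no values, and 18774 were kept. Adjusted p are Benjamini-Hochberg over those genes, with a threshold of 0.05. The standard error of a log2 change is its size over the root of F, and the biological coefficient of variation was 23.4%. Paralog ratios added 0.5 reads to each count and were tested by two-sided exact permutation within genotype. DESeq2 1.42.0 was an alternative. Motifs and coding lengths came from RefSeq TAIR10.1, and some sequence is not reported here.

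The rule for the 32 genes uses identifiers only, but they and all lists were chosen with earlier results of these data known. All 32 genes are reported; of each related list the 2 largest rises and 2 largest falls among genes called in WT are named. The alternatives were other scalings, DESeq2, no filter, only the groups compared, a replicate block by letter, each library left out and, chosen after seeing the data, all 4 libraries lettered a left out.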

Additional observations from a re-analysis of the deposited data

How the results depend on the processing

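The scale is the choice that turned results. With total counts as library size, heat in WT gave 1 gene higher and 14 lower, and heat in pif4 1 higher and 18 lower. Of all genes, 62.0% were called lower in each genotype on that scale. In WT the log2 changes of 22 genes then had the other sign: PSAD1 -0.10, PSAE1 -0.75, PSAG -0.36, PSAH1 -0.26, PSAH2 -0.55, PSAK -0.86, PSAL -0.017, PSAO -0.71, PSBO1 -0.24, PSBQ2 -0.46, PSBW -0.30, PSBX -0.56, PSB27 -0.28, PETC -0.32, PETE1 -0.15, PETE2 -0.030, FD2 -0.11, LFNR1 -0.52, LFNR2 -0.79, ATPC1 -0.41, ATPD -0.040 and PDE334 -0.93. In pif4 24 did: PSAD1 -0.39, PSAD2 -0.072, PSAE2 -0.76, PSAF -0.13, PSAG -0.56, PSAH1 -0.54, PSAH2 -0.83, PSAL -0.24, PSAO -0.88, PSBO1 -0.46, PSBQ1 -0.079, PSBQ2 -0.72, PSBR -0.22, PSBW -0.53, PSBX -0.69, PSB27 -0.38, PETC -0.34, PETE1 -0.42, PETE2 -0.13, FD2 -0.29, LFNR1 -0.54, LFNR2 -0.65, ATPC1 -0.52 and ATPD -0.0051. The median of all genes moved by about as much, from -0.12 to -1.13 in WT, because this scale divides by reads that include the heat-raised genes. Sign changes of values called under neither setting are not listed.

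DESeq2 size factors, DESeq2, no filter and only the groups compared gave 23 to 24 genes higher in WT and 17 to 19 in pif4. Of all 17585 to 24354 genes tested under these settings, 4524 to 4750 were higher in WT and 4370 to 4758 in pif4. Leaving out 1 library gave 19 to 24 higher and 0 lower in WT, and 14 to 26 higher and 0 to 1 lower in pif4. Of all 19020 to 19379 genes tested then, 4224 to 4653 were higher and 4046 to 4675 lower in WT. In pif4 these counts were 4239 to 4561 and 3681 to 4228. A replicate block by letter gave 26 higher in WT (PSAE2, PSAO and PSBX added), and 23 higher and 1 lower in pif4 (PSAH1, PSBW and PSBX added). It gave 0 of the 32 in the other comparisons. Of all 18774 genes, the block gave 5013 higher and 5074 lower in WT, and 5073 and 4721 in pif4. Letters did not meet the criterion for pairing, that all same-letter correlations exceed 0.1: same-letter libraries of different groups correlated by -0.083 to 0.258 in their deviations from group means, with 4 of 18 over 0.1. All 4 were between libraries lettered a, whose 6 pairs were all positive, at 0.079 to 0.258, against -0.014 to 0.089 for b and -0.083 to 0.096 for c. None of the 32 was called between genotypes, or in the difference of heat effects, under any setting that was run.

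With 1 read added to both counts, all 7 pair ratios stayed on the same side of the threshold. With 1 library left out, the 3 ratios that had passed kept passing, and the other 4 each passed without some libraries: PSAD ranged from -0.25 to -0.13 log2, PSAH from 0.24 to 0.42, PETE from -0.28 to -0.17 and LFNR from 0.15 to 0.24. Without the 4 libraries lettered a, the changes were -0.29 (PSAE), -2.04 (PSBO) and 0.51 (PSBQ), each with an adjusted p of 0.0778, but with 2 libraries a group the exact test cannot pass 0.05. Grouping by PIF4-L line was not run. With 3 libraries a group and at least 121 reads a gene and library, the precision is set by the spread between libraries as well as by depth, which were not separated.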
